A study of Mus musculus with 8 samples.

Results

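miR-146a and miR-146b are paralogous microRNAs made from separate genes, Mir146 and Mir146b. They were followed on 8 arrays of mouse bone-marrow-derived dendritic cells, 4 from cells exposed to a CpG oligonucleotide and 4 from untreated cells. The members were taken by name, as every array entry called mmu-miR-146a or mmu-miR-146b. This gave 2 of the 567 mouse miRNAs on the array, with 4 of its 1672 mouse probes and 40 of its 11340 mouse spots.

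The CpG group was C57BL/6 marrow grown with murine GM-CSF at 40 ng/ml, harvested as non-adherent cells on day 9 and left overnight with 10 µM of the class B CpG ODN1826. The untreated group had the same strain, growth factor and harvest but no oligonucleotide, and its control is called medium alone in one field of the labels and PBS in another. GM-CSF drives marrow progenitors towards a mixed myeloid culture rich in dendritic cells, and neither group was described as sorted. No sample received a control oligonucleotide, so effects of the CG pairs and of the oligonucleotide itself cannot be told apart. The labels number the replicates without saying whether they were separate mice or dishes, and the p-values therefore cover only sample-to-sample variation here, which could be technical.

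Unmethylated CpG DNA is sensed in the endosome by the Toll-like receptor TLR9, which signals through the adaptor MyD88, the kinases of the IRAK family and the ubiquitin ligase TRAF6 to the transcription factor NF-κB. miR-146a is known as an NF-κB-induced miRNA that represses Irak1 and Traf6, and so acts as a brake on the pathway that induces it. miR-146b carries the same seed, the stretch of bases that pairs with target messages, but is transcribed from another chromosome under its own control. The comparison of CpG with untreated cells asks whether the paralogues shifted together or apart.

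The mature sequences are shown because the whole comparison rests on arrays separating these near-identical RNAs. They are the 5p forms in RefSeq (GRCm38.p6), matched by name, since the array's names carry no arm suffix, and are written 5′ to 3′ with the seed, bases 2 to 8, in capitals.
miR-146a-5p: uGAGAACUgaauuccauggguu
miR-146b-5p: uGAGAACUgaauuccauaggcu
Each is 22 nt long, and 20 positions are identical. Counting from the 5′ end, with the base of miR-146a first, the differences are G18A and U21C, both far from the seed. Of 1679 mature mouse names in the RefSeq table, these 2 alone carry this seed.

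The precursors share much less than the mature forms do. In the hairpins below the 5p form is in capitals.
Mir146 hairpin: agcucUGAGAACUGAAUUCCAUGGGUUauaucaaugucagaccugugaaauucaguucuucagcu
Mir146b hairpin: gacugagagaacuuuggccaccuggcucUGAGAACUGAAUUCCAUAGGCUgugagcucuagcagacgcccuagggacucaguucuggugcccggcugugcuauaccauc
The Mir146 hairpin is 65 nt long, at chr11:43374397-43374461 on the minus strand of GRCm38.p6. No other gene of the RefSeq table overlaps it, and the closest ones listed are Gm5782, 40153 bp away, and the protein-coding Atp10b, 112112 bp away. The Mir146b hairpin is 109 nt long, at chr19:46342762-46342870 on the plus strand, within the span of the long non-coding RNA gene Gm36493. The nearest gene outside that span is the protein-coding Cuedc2, 4090 bp away.

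Each miRNA was read by 2 probes of 10 spots each. The array's own annotation gives the bases each probe targets in the older build mm9. For miR-146a these were 19 nt at chr11:43187937-43187955 (probe A_54_P2317) and 18 nt at chr11:43187937-43187954 (A_54_P2318). For miR-146b they were 19 nt at chr19:46417283-46417301 (A_54_P2006) and 18 nt at chr19:46417284-46417301 (A_54_P2005). A target of 18 nt that lies within a 22-nt miRNA always includes positions 5 to 18, and so position 18, at which the paralogues differ. Whether a probe also binds the other paralogue was not tested.

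In signal as deposited, before any scaling between arrays, miR-146a and miR-146b were both brighter in CpG cells. The total gene signal of miR-146a, an intensity summed over its probes by the scanner software, was 142, 391, 249 and 320.2 in CpG replicates 1 to 4, against 52.6, 93.7, 124 and 62.8 in untreated replicates 1 to 4. The dimmest CpG array lay above the brightest untreated array, so the groups did not overlap. The means were 276 ± 106 in CpG cells and 83.2 ± 32.2 in untreated cells (SD, n = 4 each), a geometric fold of 3.28 (exact two-sided permutation p = 0.0286, the smallest that 4 arrays against 4 can give).

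For miR-146b, the total gene signal was 644, 742, 674 and 978 in CpG replicates 1 to 4, against 455, 402, 536 and 431 in untreated replicates 1 to 4. Here too every CpG array was above every untreated array. The means were 759.6 ± 151 in CpG cells and 456 ± 57.6 in untreated cells (SD, n = 4 each), a geometric fold of 1.65 (exact two-sided permutation p = 0.0286). The share of all miRNAs whose groups did not overlap before scaling was not counted. Without scaling, limma called 88 of the 212 tested miRNAs higher in CpG cells. Their median log2 difference over all 212 was then 0.60, beside 0.73 for miR-146b and 1.72 for miR-146a. Both paralogues were called detected on all 8 arrays, and the deposited error of each signal was 8.83% to 9.57% of it. Levels of miR-146a and miR-146b are not set against each other, since their probes differ in brightness.

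**Figure D1:**
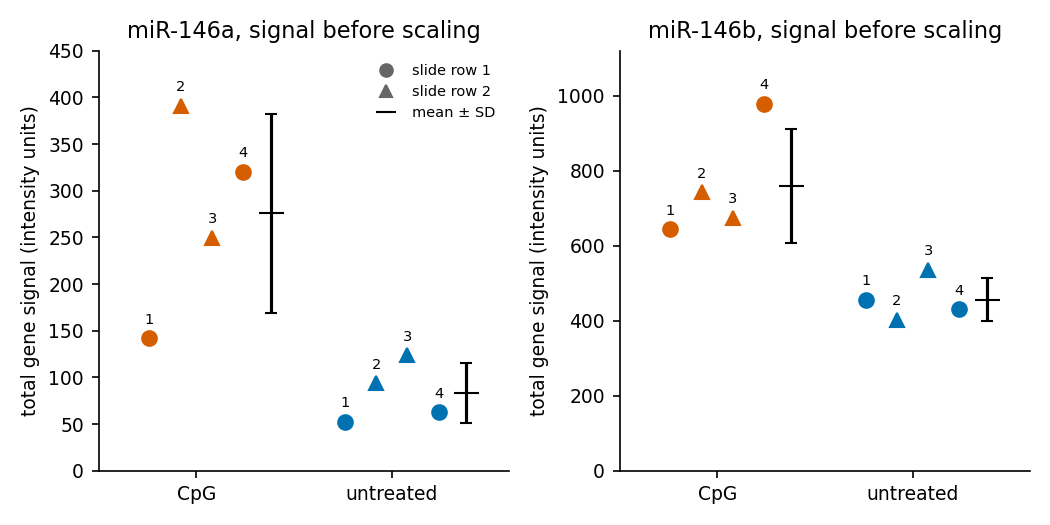
Total gene signal of miR-146a (left) and miR-146b (right) on each array, in intensity units before scaling, for 4 CpG and 4 untreated arrays. Numbers are replicates, shapes give the slide row, and bars are mean ± SD; in both panels all CpG points lie above all untreated points.

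The arrays themselves differed in brightness in the same direction. Across the 177 mouse miRNAs that every array detected, the 75th percentile of signal was 157, 252, 180.1 and 280.5 in CpG replicates 1 to 4, against 101, 124, 144 and 120.3 in untreated replicates 1 to 4. These did not overlap (217 ± 58.5 in CpG cells and 122 ± 17.5 in untreated cells, SD, n = 4 each, exact two-sided permutation p = 0.0286), a shift of 0.80 on the log2 scale. Between 213 and 236 mouse miRNAs were detected on the CpG arrays, against 191 to 203 on the untreated arrays. The array's bright hur controls, 4 features, differed by a geometric fold of 1.18 in CpG over untreated arrays (exact two-sided permutation p = 0.114). The part of array brightness in the differences of miR-146a and miR-146b was not tested, and changes are given below relative to each array's 75th percentile.

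After that scaling miR-146a rose in CpG cells, and miR-146b did not pass the test. On the log2 scale, where 0 is the array's 75th percentile, miR-146a was at -0.64, 0.19, -0.02 and -0.26 in CpG replicates 1 to 4, against -1.45, -0.84, -0.72 and -1.40 in untreated replicates 1 to 4. The lowest CpG array, replicate 1, and the highest untreated array, replicate 3, came close without overlapping. The means were -0.18 ± 0.35 in CpG cells and -1.10 ± 0.38 in untreated cells (SD, n = 4 each). The difference of 0.92 (SE 0.23, 95% interval 0.39 to 1.44) is a 1.89-fold increase (limma, adjusted p = 0.0355 over 212 tested miRNAs).

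That call was close to the threshold and depended on single arrays. The difference stayed positive in all 8 fits that left out 1 array, between 0.79 and 1.07, but passed in 2 of them, those without CpG replicate 1 or untreated replicate 3. Without CpG replicate 2 it was 0.79 and without untreated replicate 1 it was 0.80 (limma, adjusted p = 0.102 and 0.0789).

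miR-146b sat at 1.54, 1.11, 1.41 and 1.35 on the same scaled log2 axis in CpG replicates 1 to 4, against 1.67, 1.26, 1.40 and 1.38 in untreated replicates 1 to 4. The groups overlapped almost entirely. The means were 1.36 ± 0.18 in CpG cells and 1.43 ± 0.17 in untreated cells (SD, n = 4 each), a difference of -0.07 (SE 0.15, 95% interval -0.41 to 0.27; limma, adjusted p = 0.742). The sign depended on the scaling: the difference was 0.17 with median-of-ratios scaling, 0.18 with quantile normalization and 0.48 when arrays were scaled on the hur features (limma, adjusted p = 0.268, 0.131 and 0.00981). miR-146a was higher in CpG cells under each of those scalings, by 1.16, 1.07 and 1.47 on the log2 scale (limma, adjusted p = 0.0315, 0.0445 and 0.0109).

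**Figure D2:**
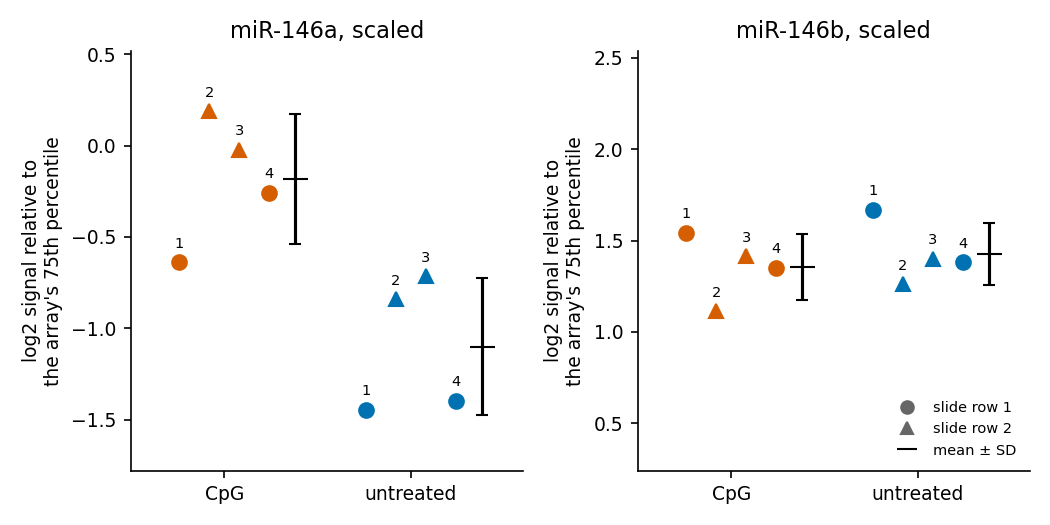
Scaled log2 signal of miR-146a (left) and miR-146b (right) on each array, relative to the array's 75th percentile, with the same span on both axes. Numbers are replicates, shapes give the slide row, and bars are mean ± SD; the CpG and untreated points are separate for miR-146a and mixed for miR-146b.

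Among all 212 tested miRNAs, 30 passed the threshold of 0.05, which is 14.2%. Of these 16 were higher in CpG cells, or 7.55% of those tested, and 14 were lower, or 6.6%. These counts rested on single arrays. Omitting CpG replicate 1 gave 39 higher and 29 lower, CpG replicate 2 gave 8 higher and 3 lower, and CpG replicate 3 gave 3 higher and 2 lower. Omitting untreated replicate 1 gave 8 higher and 4 lower, untreated replicate 2 gave 3 higher and 2 lower, and untreated replicate 4 gave 10 higher and 7 lower. Without scaling 88 were called higher. miR-146a is 1 of the 16, and ranks 12 by size of increase, with miR-146b at rank 90. Groups did not overlap in the upward direction for 7.08% of tested miRNAs, miR-146a among them, and in the downward direction for 19.8%. The median difference of all tested miRNAs was -0.19 on the log2 scale with the 75th percentile and 0.60 without scaling. Relative to that scaled median, miR-146a lay 1.11 higher and miR-146b 0.12 higher.

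The within-array ratio removes any factor that multiplies a whole array. The log2 of miR-146a signal over miR-146b signal was -2.18, -0.92, -1.44 and -1.61 in CpG replicates 1 to 4, against -3.11, -2.10, -2.12 and -2.78 in untreated replicates 1 to 4. Its level carries the brightness of the probes and is not read, only its difference between groups. Of the CpG arrays 3 lay above every untreated array, while CpG replicate 1 fell just below untreated replicates 2 and 3. The means were -1.54 ± 0.52 in CpG cells and -2.53 ± 0.50 in untreated cells (SD, n = 4 each). The difference of 0.99, a 1.99-fold higher ratio in CpG cells, did not pass (exact two-sided permutation p = 0.0857). A shift of miR-146a relative to its paralogue was thus not shown by this test. Of the 8 comparisons that left out 1 array, only the one without CpG replicate 1, the array that overlapped, passed. Its difference was 1.20 and its groups did not overlap (exact two-sided permutation p = 0.0286). The rest had overlapping groups (exact two-sided permutation p = 0.0857 to 0.171).

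**Figure D3:**
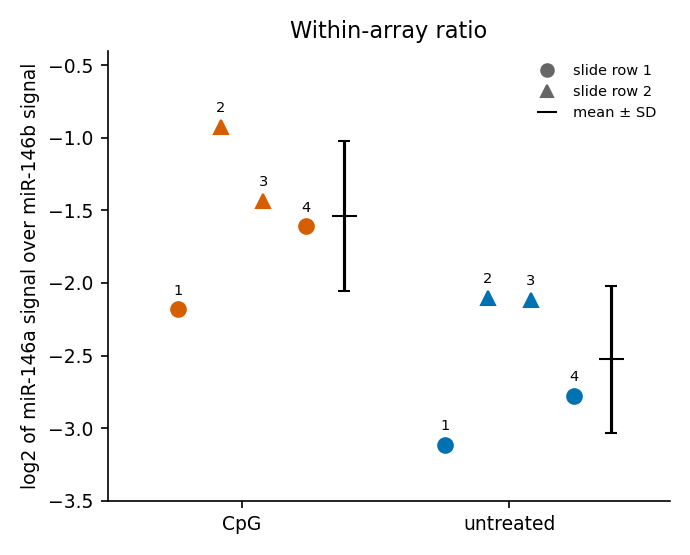
Log2 of miR-146a signal over miR-146b signal within each array, for 4 CpG and 4 untreated arrays, with replicate numbers and mean ± SD. Triangles (slide row 2) lie above circles (slide row 1) within each group, and CpG replicate 1 is level with untreated replicates 2 and 3.

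The 8 arrays sat in 2 rows of a single slide. Replicates 1 and 4 of both groups were in row 1 and replicates 2 and 3 in row 2, so that row and these pairs of replicate numbers cannot be told apart. miR-146a followed the row inside each group: its scaled log2 signal was higher in row 2 than in row 1 by 0.53 in CpG cells and by 0.64 in untreated cells. For miR-146b the same difference, row 2 minus row 1, was -0.18 in CpG cells and -0.19 in untreated cells. In the fit with the row as a term, row 2 exceeded row 1 by 0.59 for miR-146a. The unadjusted p of this term was the smallest of the 212 miRNAs, and it did not pass after adjustment (limma, unadjusted p = 0.00241, adjusted p = 0.51).

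Within each row the CpG difference had about the same size. In row 1, miR-146a was at -0.64 and -0.26 in CpG cells, against -1.45 and -1.40 in untreated cells, a log2 difference of 0.97. In row 2 it was at 0.19 and -0.02 in CpG cells, against -0.84 and -0.72 in untreated cells, a difference of 0.86. The log2 ratio of miR-146a to miR-146b differed between CpG and untreated cells by 1.05 in row 1 and 0.93 in row 2, and its groups did not overlap inside either row. miR-146b differed by -0.08 in row 1 and -0.07 in row 2, with overlapping groups. Each of these rests on 2 arrays a group and has no test of its own. The share of all tested miRNAs that separated inside a row was not counted, so the lack of overlap is not read as a result.

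Both probes of miR-146a moved alike. The probe A_54_P2317 had mean spot intensities of 176, 500.3, 311 and 413 in CpG replicates 1 to 4, against 65.3, 122, 155 and 80.6 in untreated replicates 1 to 4. The dimmer probe A_54_P2318 had 24.7, 73.9, 43.7 and 56.1 in CpG replicates 1 to 4, against 8.83, 16.5, 20.6 and 10.9 in untreated replicates 1 to 4. For either probe all CpG arrays were brighter than all untreated arrays. After scaling, the log2 differences were 0.91 and 0.98, with no overlap of groups. Adjusted over the 4 probes neither passed (exact two-sided permutation, adjusted p = 0.0571 each), a value at which 2 probes at the smallest possible p must land. The probes read the same molecule and are not replicates.

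The probes of miR-146b also behaved alike. A_54_P2006 had mean spot intensities of 828, 990.1, 865 and 1307 in CpG replicates 1 to 4, against 585, 544, 691 and 571 in untreated replicates 1 to 4. A_54_P2005 had 84.0, 99.7, 94.5 and 125 in CpG replicates 1 to 4, against 57.2, 51.9, 68.0 and 56.3 in untreated replicates 1 to 4. After scaling, the log2 differences were -0.08 and -0.02 with overlapping groups (exact two-sided permutation, adjusted p = 0.724 and 0.943). As for the miRNA itself, these signs turned with the scaling: on the hur features the differences were 0.48 and 0.54 (exact two-sided permutation, adjusted p = 0.0286 each).

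**Figure D4:**
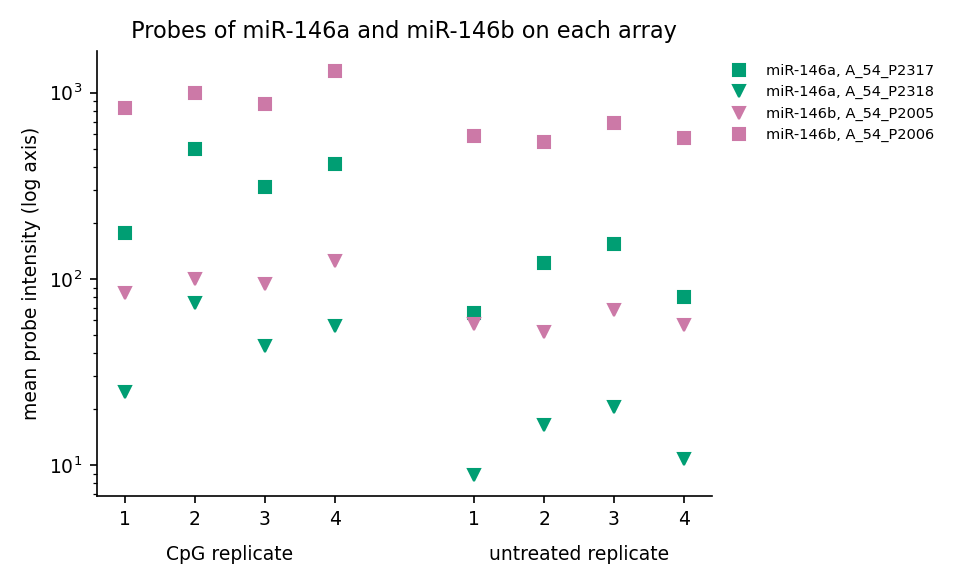
Mean spot intensity (log axis) of the 4 probes on each array, with CpG replicates 1 to 4 on the left and untreated replicates 1 to 4 on the right. Squares are the 19-nt targets and triangles the 18-nt targets; within a colour the pair of probes keeps the same order and nearly the same distance on every array.

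Pairing the probes across the paralogues gave 4 ratios. Their log2 differences, CpG minus untreated, were 0.93, 0.99, 0.99 and 1.05, with overlapping groups in each (exact two-sided permutation p = 0.0857 for all 4, unadjusted). The ratio of the 2 probes of one miRNA barely varied. A_54_P2317 over A_54_P2318 was 6.77 to 7.49 across the 8 arrays, with log2 means of 2.83 ± 0.05 in CpG cells and 2.89 ± 0.01 in untreated cells (SD, n = 4 each). That small log2 difference of -0.07 separated the groups (exact two-sided permutation p = 0.0286). A_54_P2006 over A_54_P2005 was 9.15 to 10.5 across the arrays, with log2 means of 3.30 ± 0.08 in CpG cells and 3.36 ± 0.02 in untreated cells (SD, n = 4 each, exact two-sided permutation p = 0.143).

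Spots of a probe on one array varied with coefficients of 1.82% to 18.8%, and no spot was saturated. All 40 spots per group were well above background for 3 of the 4 probes. For A_54_P2318 this held for 40 of 40 spots in CpG cells and 32 of 40 in untreated cells, with 3 of 10 on untreated replicate 1. When every miRNA on the array was read by its brightest probe, the log2 difference of miR-146a was 1.06 (limma, adjusted p = 0.0377). That of miR-146b was then 0.0746 (limma, adjusted p = 0.777). These are not values of single probes under the scaling used above, which were 0.91 for A_54_P2317 and -0.08 for A_54_P2006. The source of that gap was not tested.

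Other miRNAs described as responsive to Toll-like receptors give the setting for these values. Of 12 on the list, 11 could be tested, and by limma adjusted p 4 rose and 0 fell in CpG cells. Among all tested miRNAs, 7.55% were called higher and 6.6% lower. The list gave the same counts at an unadjusted p under 0.05. That threshold is looser, so the shares just given do not apply to it, and the share of all miRNAs at it was not counted. At the 75th percentile the list's median difference was -0.04 on the log2 scale, beside -0.19 for all 212 miRNAs. The risers beside miR-146a were miR-155, an inflammatory miRNA known to repress Socs1 and Inpp5d, miR-222, which shares a primary transcript with miR-221, and miR-147, described as induced in mouse macrophages. miR-155 differed by 1.92 on the log2 scale, miR-222 by 1.14 and miR-147 by 0.97 (limma, adjusted p = 0.000956, 0.0111 and 0.0227). The 7 tested members that did not pass, miR-146b among them, had log2 differences between -0.31 and 0.42, and the remaining one was not detected on any array. Of the alternatives run, miR-155 passed in 30 of 30, compared with 28 for miR-222, 24 for miR-147 and 20 for miR-146a.

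The 5 miRNAs whose scaled log2 signal ran most like that of miR-146a over the 8 arrays were miR-7a (Pearson r 0.93), miR-669b (0.88), miR-101b (0.87), miR-155 (0.86) and miR-302c* (0.85). With group means removed, r was 0.85 for miR-7a, 0.78 for miR-669b, 0.53 for miR-101b, 0.43 for miR-155 and 0.66 for miR-302c*, whose untreated values all sat at the floor of the scale. miR-146b ran most like miR-338-3p (0.96), miR-181a (0.91), miR-494 (0.89), miR-29a (0.89) and miR-152 (0.89). At this scaling the paralogues themselves had an r of -0.60 over the 8 arrays and -0.75 with group means removed. Before scaling, both were brighter on every CpG array than on any untreated array, and their r was not calculated there. The negative sign is therefore not read as opposite movement. These correlations describe 8 arrays that share a slide, a scaling and 2 groups. With other scalings, 2 to 4 of the 5 miRNAs nearest miR-146a stayed among its nearest, and 0 or 1 of the 5 nearest miR-146b did.

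Marker miRNAs of several cell types were read on all arrays. The 3 myeloid markers miR-223, miR-142-3p and miR-142-5p were detected throughout, with a summed scaled signal of 14.3 to 17.7 in CpG cells, against 19.3 to 22.6 in untreated cells, groups that did not overlap. Of 3 lymphoid markers 2 were detected and miR-150 was not, with sums of 0.963 to 1.58 in CpG cells and 1.29 to 1.59 in untreated cells. Of 5 epithelial markers 3 were detected, miR-200b on all 4 arrays of each group, and miR-200c and miR-141 on 4 CpG arrays and 1 untreated array. The epithelial sums were 0.108 to 0.123 in CpG cells and 0.134 to 0.168 in untreated cells, and did not overlap either. Among single tested miRNAs, 19.8% had groups that did not overlap in this downward direction, a share not counted for sums. Singly, miR-223 differed by -0.60 on the log2 scale, miR-142-3p by -0.20 and miR-142-5p by -0.02 (limma, adjusted p = 0.0284, 0.273 and 0.926). Of the epithelial markers, miR-200b differed by -0.59, miR-200c by -0.17 and miR-141 by -0.06 (limma, adjusted p = 0.0764, 0.467 and 0.784). Of these, only miR-223 and miR-200b had groups that did not overlap. None of the erythroid, endothelial, stromal and muscle markers was detected on any array, and their sums lay between -0.025 and 0.0044 in CpG cells and between -0.0298 and 0.0097 in untreated cells, at or near 0. The part of these marker levels in the difference of miR-146a was not tested, and in bulk RNA more cells of a type and more miRNA per cell cannot be told apart.

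Across the alternatives run, which changed the scaling, background correction, probe summary, filters, model or arrays, miR-146a was higher in CpG cells in 30 of 30, and miR-146b in 12 of 30. Those that changed only the filter, floor, limma options or blocks, or read the deposited total gene signal, left both differences unchanged. They are not separate checks of the sign. The within-array ratio was higher in CpG cells in 27 of 27 and passed in 3. A factor on a whole array cancels in the ratio, so scalings that apply one returned the same 0.99 and are not separate checks. With blocks for replicate number or slide row, or without CpG replicates 2 and 4, the few arrangements allowed no p below 0.05.

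**Figure D5:**
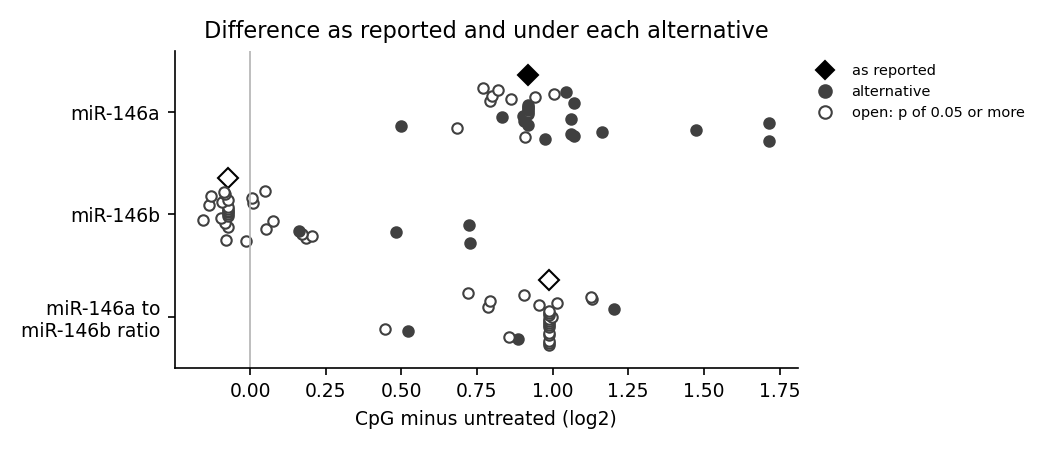
Log2 difference, CpG minus untreated, of miR-146a, of miR-146b and of their within-array ratio as reported (diamonds) and under each alternative (circles, 30 for each miRNA and 27 for the ratio). Filled marks have p below 0.05 (limma adjusted p, or exact permutation p for the ratio); miR-146a and the ratio lie right of 0 throughout, and miR-146b lies on both sides.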

How the data were processed

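Total RNA labelled with Cy3 was hybridised in 1 colour to 8 Agilent mouse miRNA arrays, 4 per group. The authors deposited each array's spots as Feature Extraction 9.5.3.1 processed signal, a background-subtracted intensity, per the file headers, and a total gene signal with a detection flag per miRNA. Of 2048 mouse values in the authors' series table, 2009 equalled that total gene signal within 0.1%, and the other 39 stood at 0.01 where the signal was at or below it. The submitters' processing notes name limma, with neither a version nor a statement of its use.

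Spots without outlier flags were averaged per probe and probes per miRNA. Each miRNA's signal was scaled to the 75th percentile of its array, taken across the 177 mouse miRNAs that all 8 arrays detected, floored at -6.55 on the log2 scale, and tested where detected on 3 of 4 arrays of a group. limma 3.58.1 in R 4.3.3 (lmFit, eBayes, two-sided) was adjusted by Benjamini-Hochberg over 212 miRNAs. Ratios and probes were compared by exact permutation of 70 arrangements in Python 3.11.15 (figures: matplotlib 3.10.9). The number of arrays limits precision. The fit was tested on simulated data.

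The members and lists were chosen with earlier results of these data known. The rule for named miRNAs took both paralogues, the TLR-responsive list (miR-155, miR-146a, miR-146b, miR-147, miR-132, miR-212, miR-21, miR-9, miR-9*, miR-221, miR-222 and miR-187) and the 5 miRNAs most correlated with each paralogue. Values of list members outside the threshold are given as a range. Alternatives were other scalings, background corrections, probe summaries, filters, a higher floor, limma options, blocks for replicate number or slide row, and omitted arrays. Those of the probes, of miR-155, miR-222 and miR-147, of the list and of the most correlated miRNAs were chosen after seeing the data.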

Additional observations from a re-analysis of the deposited data

Results flagged for a closer look

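Untreated replicate 2 detected 203 mouse miRNAs where the other 3 untreated arrays averaged 192, and its gap to the nearest of them was unusually wide for the range of the group. It was 1 of 36 groups of 4 arrays checked in this way, where chance alone marks about 1 in 20. Without untreated replicate 2 the log2 difference of miR-146a was 1.00 (limma, adjusted p = 0.0731).

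miR-146b*, the other arm of the Mir146b hairpin as the array names it, was called detected on 1 of the 8 arrays, CpG replicate 4, with a total gene signal of 4.48 intensity units. It was not called detected on any untreated array or on the other 3 CpG arrays. It was not tested, since it was detected on too few arrays.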

How the results depend on the processing

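miR-146a was higher in CpG cells in all 30 alternatives, by 0.50 to 1.72 on the log2 scale, and passed in 20. It did not pass with scaling on the median (0.91, limma adjusted p = 0.0568), with normexp and quantile normalization (0.68, adjusted p = 0.0574), with no filter on dim miRNAs (0.92, adjusted p = 0.14) or without CpG replicates 2 and 4, the brightest CpG arrays (0.77, adjusted p = 0.152). Leaving out 1 array gave 0.79 to 1.07. miR-146b turned positive in 12 alternatives, among them 2 of the 8 that left out 1 array, which ranged from -0.1345 to 0.0087. The other 10 were 0.73 without scaling, 0.72 in the authors' series table, 0.48 on the hur features, 0.21 with cyclic loess, 0.18 with quantile normalization, 0.17 with median-of-ratios, 0.16 with normexp and quantile, 0.0519 with normexp and the 75th percentile, 0.0746 with the brightest probe and 0.0504 without CpG replicates 2 and 4. It passed in 4, those without scaling, in the series table, on the hur features and with normexp and quantile (limma, adjusted p = 0.0286, 0.0252, 0.00981 and 0.0369). The within-array ratio was higher in CpG cells in all 27 alternatives and passed in 3, at 0.89 with quantile normalization, 0.52 with normexp and quantile, and 1.20 without CpG replicate 1 (exact permutation p = 0.0286 each). Scalings that multiply a whole array cancel in the ratio and returned the same 0.99, so they are not separate checks of it. Leaving out 1 array gave 0.79 to 1.20 for the ratio.

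At the probes, adjusted exact permutation p fell to 0.0286 for A_54_P2317 and A_54_P2318 without scaling (1.71 and 1.78) and on the hur features (1.46 and 1.53), and leaving out 1 array gave 0.79 to 1.06 and 0.83 to 1.13. A_54_P2005 and A_54_P2006 turned positive without scaling (0.78 and 0.72), on the hur features (0.54 and 0.48), with median-of-ratios (0.23 and 0.17) and without CpG replicates 2 and 4 (0.15 and 0.0402), as did A_54_P2005 with the 75th percentile over all miRNAs (0.0412). Leaving out 1 array gave -0.0833 to 0.0673 for A_54_P2005 and -0.1401 to 0.0027 for A_54_P2006. The causes of these changes were not tested.

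The correlations of deviations between same-numbered arrays were 0.28, -0.26, 0.25 and 0.10, which does not show that the numbers pair the samples, nor that they do not, and 1 of 4 correlated best with its own number. With the replicate block the log2 difference was 0.92 for miR-146a and -0.07 for miR-146b (limma, adjusted p = 0.0157 and 0.618), calls over all miRNAs were 16 higher and 22 lower, and the ratio's 0.99 had an exact permutation p of 0.125, the smallest that 16 arrangements allow. With the slide row as a block that p was 0.0556, the smallest of 36. Calls over all miRNAs ranged from 2 to 93 higher and 0 to 132 lower, and were 88 higher without scaling, against 16 higher and 14 lower at the 75th percentile. On the hur features they were 68 and 2, and with normexp and the 75th percentile 6 and 132. Of the TLR-responsive list, 1 to 8 members were called higher and 0 to 3 lower across the alternatives, with any called lower in 1 of them.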
